A study of Rattus norvegicus with 9 samples.

Results

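Reads of rno-miR-320-3p and rno-miR-877, rat microRNAs (miRNAs) of families known to be made without the nuclease Drosha, were followed through exosomal small RNA of rat peritoneal macrophages. They were chosen by name, and are 2 of the 201 mature miRNAs in the deposited table. Both passed the filter on low counts, with 94 miRNAs tested in all. The BGISEQ-500 platform was used to sequence small RNA of exosomes, vesicles shed by cells, in 9 libraries.

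There were 3 groups of 3 libraries. In LPS+AS-IV, cells were held in 150 µM astragaloside IV, a plant saponin, for 24 h. They were then given lipopolysaccharide, a component of bacterial outer membranes, at 100 ng/ml for 6 h. In LPS, cells were given lipopolysaccharide alone, also at 100 ng/ml for 6 h. Control cells were held in 0.1% DMSO for 24 h. Both agents were dissolved in DMSO, and its final concentration is stated for Control alone, so vehicle and treatment cannot be told apart. The cells came by lavage from untreated rat and grew with bovine serum, and the labels do not say whether serum vesicles were removed. Nor do they tie libraries to separate animals or cultures. The p-values therefore measure the spread between these samples only, and that spread may be technical.

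Most miRNAs are cut out of a long transcript by Drosha and then trimmed by Dicer. miR-320 escapes the first cut because its short hairpin begins where transcription begins and carries a cap, and its 3′ arm is the one loaded into Argonaute. miR-877 escapes it as a mirtron: its hairpin is an entire small intron, which the spliceosome excises, and its mature form begins at the first base of that intron. Both still need Dicer.

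The sequences are shown because the results turn on their ends. The first pair gives the commonest tag of each member in the deposited files, where a tag is a distinct read sequence, with the seed (bases 2 to 8) in capitals.

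miR-320-3p: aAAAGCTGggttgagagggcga

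miR-877: gTAGAGGAgatggcgcaggg

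The seeds differ. RefSeq's table for build GRCr8 held an entry for miR-877, 1 of the 2 members, at chr20:2816284-2816368 on the plus strand. In the same annotation this gene lies within Abcf1, which encodes an ATP-binding protein of translation initiation. Its hairpin of 85 bases is given with the mature miRNA in capitals.

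miR-877 hairpin: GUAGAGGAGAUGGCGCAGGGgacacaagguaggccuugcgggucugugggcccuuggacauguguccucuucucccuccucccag

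It opens with gu and closes with ag, the letters that bound most introns. Mir320a lies next to Polr3d, a subunit gene of RNA polymerase III, in the same annotation.

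The commonest forms of miR-320-3p differ at the 3′ end. In the next lines, capitals mark bases that are not in the 22-base tag.

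22 bases: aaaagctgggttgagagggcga

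21 bases: aaaagctgggttgagagggcg

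23 bases with A: aaaagctgggttgagagggcgaA

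23 bases with T: aaaagctgggttgagagggcgaT

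24 bases with AT: aaaagctgggttgagagggcgaAT

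24 bases with TT: aaaagctgggttgagagggcgaTT

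24 bases with AA: aaaagctgggttgagagggcgaAA

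The main tags of miR-877 share their first 19 bases and end at different places. Here capitals mark the bases from the point where a tag departs from the RefSeq hairpin.

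19 bases: gtagaggagatggcgcagg

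20 bases: gtagaggagatggcgcaggg

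21 bases: gtagaggagatggcgcagggg

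24 bases: gtagaggagatggcgcaggggaca

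23 bases with AAT: gtagaggagatggcgcagggAAT

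23 bases with AAA: gtagaggagatggcgcagggAAA

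Between 3484099 and 9527483 reads per library had an assignment, and between 15426 and 546599 of these were in the miRNA table. The library LPS+AS-IV 3 held that highest number, and the other 8 libraries held at most 75528. Levels are given in CPM, table reads put on a common scale by TMM factors. Of 6 myeloid marker names 5 were in the table, with a summed level of 7837 to 75458 CPM in LPS+AS-IV, 12378 to 36236 CPM in LPS and 21489 to 44950 CPM in Control. The members differed: miR-146a-5p had 488 to 4198 reads and miR-21-5p 4 to 493 reads over the 9 libraries, and miR-223-3p had 0 reads in LPS+AS-IV 1, LPS 1 and LPS 2. Further, miR-155-5p had 0 reads in LPS+AS-IV 3, Control 1 and Control 3, miR-142-5p had at most 1 read in 7 libraries, and miR-142-3p was the name not in the table. The lymphocyte miRNA miR-150-5p had 219 to 22204 reads. Red-cell markers differed too, with 339 to 19353 reads for miR-451-5p, 0 to 610 for miR-486, which was at 0 in LPS+AS-IV 3 and LPS 3, and 0 or 1 for miR-144-3p. The part of other cell types or of serum in the results below was not tested. In vesicle RNA, fewer vesicles and less of a miRNA per vesicle cannot be told apart.

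miR-320-3p was present in all 9 libraries. Its level was 25531, 5534 and 14331 CPM in LPS+AS-IV 1, 2 and 3, from 354, 363 and 7174 reads. In LPS 1, 2 and 3 it was 8708, 19585 and 9380 CPM, from 242, 1144 and 585 reads. In Control 1, 2 and 3 it was 12457, 10424 and 11746 CPM, from 577, 349 and 874 reads. LPS+AS-IV held both the highest and the lowest library, and the ranges of the 3 groups overlapped. Among the miRNAs of each library its rank lay between 11 (LPS+AS-IV 1) and 28 (LPS+AS-IV 2).

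The group means of miR-320-3p were 15132 ± 10023 CPM in LPS+AS-IV, 12557 ± 6095 CPM in LPS and 11542 ± 1032 CPM in Control (SD, n = 3 each). None of these neighbours in the order of levels differed beyond their spread. With edgeR's quasi-likelihood test the log2 fold change was 0.27 (SE 0.57, adjusted p = 0.963) in LPS+AS-IV against LPS. It was 0.39 (SE 0.57, edgeR adjusted p = 0.981) in LPS+AS-IV against Control. In LPS against Control it was 0.12 (SE 0.57, edgeR adjusted p = 0.964). The directions turned when 1 library was left out. Without LPS+AS-IV 1 the value was -0.39 in LPS+AS-IV against LPS and -0.07 in LPS+AS-IV against Control. Without LPS 1 the first of these was -0.09, and without LPS 2 the value of LPS against Control was -0.13.

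miR-877 was far less abundant and was missing from the table in 3 libraries. Its level was 1009.7, 2393 and 2341 CPM in LPS+AS-IV 1, 2 and 3, from 14, 157 and 1172 reads. In LPS 1, 2 and 3 it was 0, 0 and 1106 CPM, from 0, 0 and 69 reads. In Control 1, 2 and 3 it was 2245, 1225 and 0 CPM, from 104, 41 and 0 reads. Reads were thus present in all 3 LPS+AS-IV libraries, though the lowest of them lay below LPS 3. Where the table held no read, up to 3 could have been missed. These 3 reads came to 108 CPM in LPS 1, 51.4 CPM in LPS 2 and 40.3 CPM in Control 3. All 3 limits were below the lowest level seen in any library with reads in the table. LPS 1 did have 1 miR-877 read outside the table, assigned to the hairpin.

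The group means of miR-877 were 1915 ± 784 CPM in LPS+AS-IV, 369 ± 639 CPM in LPS and 1157 ± 1124 CPM in Control (SD, n = 3 each). By edgeR the log2 fold change came to 2.37 (SE 2.52, adjusted p = 0.963) in LPS+AS-IV against LPS. It was 0.73 (SE 2.41, edgeR adjusted p = 0.981) in LPS+AS-IV against Control. In LPS against Control it was -1.64 (SE 2.46, edgeR adjusted p = 0.964). These SEs were over 4 times those of miR-320-3p. Without LPS 3, the LPS library with reads in the table, the fit gave 10.57 in LPS+AS-IV against LPS and -9.87 in LPS against Control. Both then compare with a group at 0 reads, so their size depends on the fit's prior count and measures no fold. At the other end, LPS+AS-IV against LPS was 1.62 without LPS 1, and LPS against Control was -0.48 without Control 1. LPS+AS-IV against Control was 0.02 without Control 3, the Control library at 0, and 1.75 without Control 1.

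**Figure D1:**
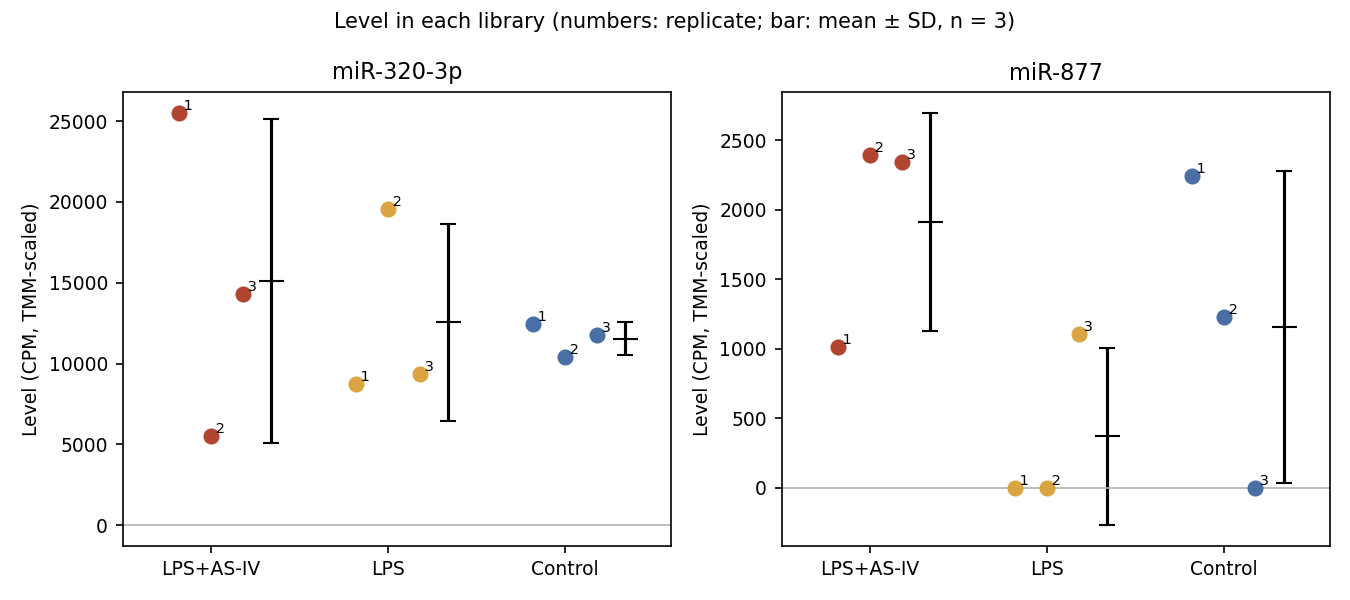
Level of miR-320-3p (left) and miR-877 (right) in each library, in TMM-scaled CPM; points are libraries with their replicate number, and bars are the group mean ± SD (n = 3 each). LPS+AS-IV holds both the highest and the lowest miR-320-3p library, and miR-877 is at 0 in LPS 1, LPS 2 and Control 3.

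**Figure D2:**
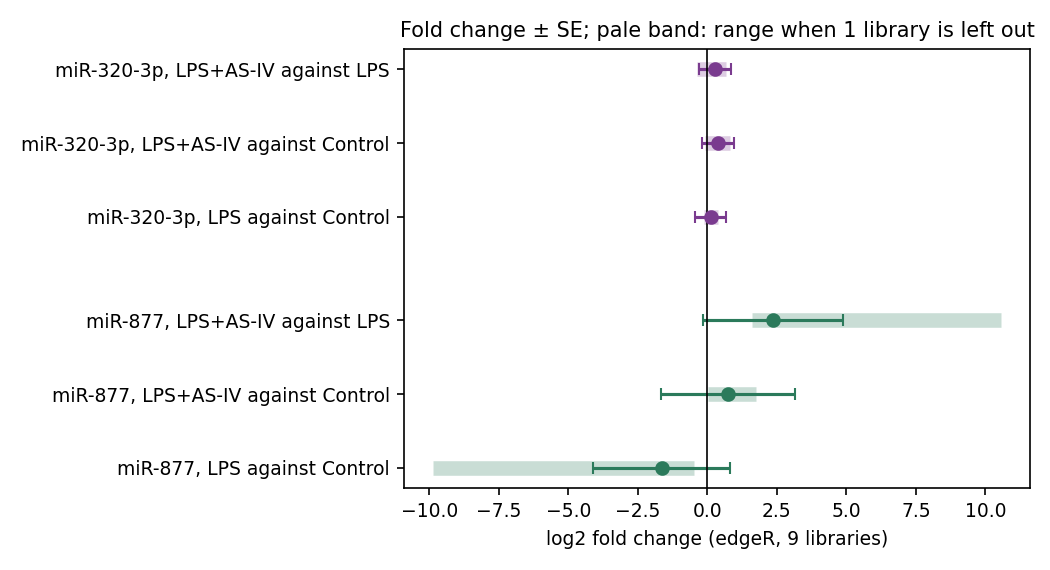
The log2 fold changes of both members in the 3 comparisons, with the SE as the error bar and, as a pale band, the range when 1 of the 9 libraries is left out. The estimates for miR-320-3p lie within 0.39 of 0, and the bands for miR-877 reach 10.57 and -9.87.

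Of the 2 members, 0 passed an edgeR adjusted p under 0.05 in LPS+AS-IV against LPS, where 0% of the 94 tested miRNAs passed. Likewise 0 of the 2 passed in LPS+AS-IV against Control, against 2.13% of all tested. In LPS against Control 0 passed, against 1.06% of all tested. The calls were let-7a-5p in both comparisons with Control and miR-3596a in LPS+AS-IV against Control. None of them remained when each tag was given to 1 name. At an unadjusted edgeR p under 0.05 neither member passed in any comparison, and DESeq2 called neither. The counts over all 94 moved when 1 library was left out. In LPS+AS-IV against LPS, 1 was called without LPS+AS-IV 2, LPS 1 or Control 1. In LPS+AS-IV against Control, 3 in place of 2 were called without LPS+AS-IV 2 or Control 1. In LPS against Control, 3 in place of 1 were called without LPS 1 or Control 1, and 2 without LPS+AS-IV 2, LPS+AS-IV 3 or Control 3. With all 9 libraries, at an unadjusted p under 0.05, 3, 3 and 6 of the 94 tested miRNAs passed edgeR in the same order of comparisons, and DESeq2 called 1, 2 and 3. The median log2 fold change of all tested miRNAs was 0.19, 0.21 and -0.04 in that order. LPS+AS-IV libraries entered 2 of the comparisons, as did LPS and Control libraries, so the comparisons are not independent.

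The balance of the members varied widely within groups. The log2 ratio of miR-320-3p reads to miR-877 reads, with 1 read added to each, was 4.56, 1.20 and 2.61 in LPS+AS-IV 1, 2 and 3. It was 7.92, 10.16 and 3.07 in LPS 1, 2 and 3, and 2.46, 3.06 and 9.77 in Control 1, 2 and 3. The highest values were those of the libraries with no miR-877 reads in the table, where the ratio depends on the added read. The mean was 2.79 ± 1.69 for LPS+AS-IV, against 7.05 ± 3.63 for LPS (SD, n = 3 each; two-sided exact permutation p = 0.2, adjusted p = 0.771). In Control it was 5.10 ± 4.06 (SD, n = 3), with an exact permutation p of 0.6 for LPS+AS-IV against Control and 0.5 for LPS against Control (adjusted p = 0.953 for both). The smallest p that 3 libraries against 3 can give is 0.1. P-values were adjusted over 27 permutation tests, which include those of the miR-877 tag share, run with fewer libraries.

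The table counts a tag only when the deposited assignment names a mature miRNA. For miR-320-3p this left out most of its reads. All tags that hold bases 3 to 18 of the commonest tag, called core reads here, came to 963, 1559 and 27286 in LPS+AS-IV 1, 2 and 3. They came to 787, 2228 and 2384 in LPS 1, 2 and 3, and to 1587, 1138 and 2392 in Control 1, 2 and 3.

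The share of miR-320-3p core reads that reached the table was 36.8%, 23.3% and 26.3% in LPS+AS-IV 1, 2 and 3. It was 30.7%, 51.3% and 24.5% in LPS 1, 2 and 3, and 36.4%, 30.7% and 36.5% in Control 1, 2 and 3. LPS 2 (95% Wilson interval 49.3% to 53.4%) stood above the other 8 libraries, and LPS+AS-IV 2 (21.3% to 25.4%) was the lowest. Tags assigned to the miRNA hairpin, all scored as having 1 mismatch, held between 24.3% and 50.6% of core reads. Tags assigned to the miR-320 family of Rfam, a database of RNA families, held between 23.8% and 45.1%. No core tag changed its assignment between libraries.

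The mean share in the table was 28.8% ± 7.07 in LPS+AS-IV, 35.5% ± 14.0 in LPS and 34.5% ± 3.34 in Control (SD, n = 3 each). By two-sided exact permutation tests p was 0.6 for LPS+AS-IV against LPS, 0.4 for LPS+AS-IV against Control and 0.9 for LPS against Control (adjusted p = 0.953, 0.953 and 1). As a percentage of the table reads, core reads were 6.24, 2.26 and 4.99 in LPS+AS-IV 1, 2 and 3, 3.09, 3.39 and 3.87 in LPS, and 3.76, 3.69 and 3.17 in Control. LPS+AS-IV again held the highest and the lowest library. The exact permutation p was 0.5 for each comparison of LPS+AS-IV and 0.9 for LPS against Control (adjusted p = 0.953, 0.953 and 1).

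**Figure D3:**
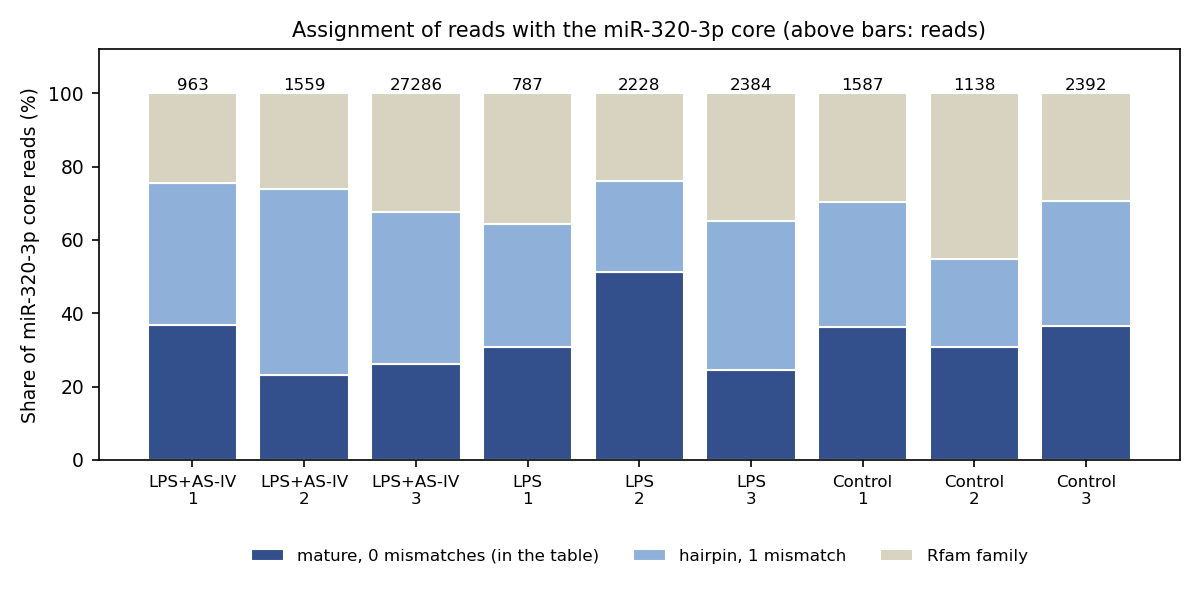
Share of miR-320-3p core reads in each library (%, from 0) by deposited assignment. The classes are mature miRNA scored as 0 mismatches, which the table counts, miRNA hairpin scored as 1 mismatch, and Rfam family. Numbers above the bars are core reads. The share in the table lies between 23.3% in LPS+AS-IV 2 and 51.3% in LPS 2.

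Assignment differed with the 3′ end. Over the 9 libraries the 22-base tag gave 10899 reads, and every one was assigned to the mature miRNA. Tags with 1 base more gave 7243 reads with a hairpin assignment and 118 with a mature one. Tags with 2 bases more gave 6738 reads in Rfam, 629 in the hairpin class and 5 in the mature class. Tags with 3 bases more gave 470 in the mature class, 302 in Rfam and 47 in the hairpin class. Most reads of tags with 1 or 2 bases more were therefore outside the table. LPS+AS-IV 3 gave a large part of these sums, with 7171 of the reads of the 22-base tag. Shorter tags were outside the table as well. Core tags of 19, 20 or 21 bases gave no reads in the mature class in any library. In LPS+AS-IV 3, core tags of 21 bases gave 3592 reads in the hairpin class and 1409 in Rfam.

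Each library had its own mix of ends. The 22-base tag held 36.7%, 19.1% and 26.3% of core reads in LPS+AS-IV 1, 2 and 3. It held 17.8%, 43.8% and 19.4% in LPS 1, 2 and 3, and 29.5%, 21.0% and 33.2% in Control 1, 2 and 3. No group was apart from the others in this share. Tags that begin at the same base and continue past the 22-base end held between 34.1% in LPS+AS-IV 3 and 66.3% in LPS 1, and outnumbered the 22-base tag in 8 of the 9 libraries. Shorter tags held between 2.77% in LPS 3 and 23.3% in LPS+AS-IV 3.

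The first base past the end was A or T in most of the longer reads. A made up 42.9% (LPS+AS-IV 2) to 90.1% (LPS+AS-IV 3) of them, and T 9.94% (LPS+AS-IV 3) to 53.7% (LPS+AS-IV 1). G reached 18.7% in the library LPS+AS-IV 2. The 23-base tag with A had 110, 376 and 4848 reads in LPS+AS-IV 1, 2 and 3, 85, 157 and 213 in LPS, and 205, 203 and 230 in Control. The 23-base tag with T, by contrast, had 98, 59 and 0 reads in LPS+AS-IV 1, 2 and 3, 59, 0 and 202 in LPS, and 0, 0 and 301 in Control. It was thus at 0 in 4 libraries, LPS+AS-IV 3 with its 27286 core reads among them. Whether the added bases are encoded after the miRNA or were added to it was not analysed here, as no miR-320 hairpin sequence was used.

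The mean length of miR-320-3p core tags was 22.80, 22.59 and 22.32 nt in LPS+AS-IV 1, 2 and 3. It was 23.05, 22.72 and 23.19 nt in LPS 1, 2 and 3, and 23.14, 23.11 and 22.65 nt in Control 1, 2 and 3. LPS+AS-IV averaged 22.57 ± 0.24 nt, against 22.99 ± 0.24 nt in LPS and 22.97 ± 0.27 nt in Control (SD, n = 3 each). The group ranges overlapped, and the exact permutation p was 0.2 for LPS+AS-IV against each other group and 0.9 for LPS against Control (adjusted p = 0.771, 0.771 and 1).

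The 5′ end was steadier. Between 83.1% in LPS 3 and 100% in LPS+AS-IV 2 of core reads began at the first base of the 22-base tag. Reads with 1 base before it reached 9.61% in LPS 3. Reads that began 1 base later made up 9.31% in Control 2, and reads that began 2 bases later made up 7.21% in LPS 3 and 3.89% in LPS+AS-IV 3. Such reads have a different seed. The tag with most reads of each kind is given, with the base before the usual start in capitals.

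1 base earlier: Gaaaagctgggttgagagggc

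1 base later: aaagctgggttgagagggcgaat

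2 bases later: aagctgggttgagagggcgaataa

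The first and the last were read 1392 and 1059 times in LPS+AS-IV 3, and the other 71 times in Control 2. Each reached 10 reads in that 1 library alone.

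Nearly all miR-320-3p core reads were in tags read at least 10 times. There were 9 to 16 such tags per library, and they held between 98.2% and 99.7% of core reads. The median of these tags was 58, 122.5 and 1400 reads in LPS+AS-IV 1, 2 and 3, 61, 157 and 131 in LPS, and 57, 69.5 and 208.5 in Control. Reads copied by PCR, with no molecular identifier, are not independent, so the intervals and limits given here cover counting error only.

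Among reads scored as mature with 0 mismatches, the 22-base tag held 93.8% ± 10.4 in LPS+AS-IV, 74.1% ± 14.4 in LPS and 80.1% ± 11.2 in Control (SD, n = 3 each). The exact permutation p was 0.2 for LPS+AS-IV against LPS, 0.2 for LPS+AS-IV against Control and 0.6 for LPS against Control (adjusted p = 0.771, 0.771 and 0.953). With tags scored as 1 mismatch included, the share was 37.6% ± 11.4 in LPS+AS-IV, 37.9% ± 16.3 in LPS and 42.2% ± 4.40 in Control (SD, n = 3 each). The differences of LPS+AS-IV from LPS and Control then turned to -0.27 and -4.54 percentage points.

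miR-877 had most of its core reads in 1 tag in each of the 6 libraries with at least 10 core reads, with 98.6% or more in 5 of them and 69.5% in Control 1. In LPS+AS-IV 1 all 14 core reads were the 19-base tag, and in LPS+AS-IV 2 all 157 were the 21-base tag. In LPS+AS-IV 3 the 20-base tag held 1169 of 1175 core reads, 99.5%. In LPS 3 the 20-base tag held 68 of 69, 98.6%. No 2 LPS+AS-IV libraries shared their main tag, while LPS+AS-IV 3 and LPS 3 did. Among mature reads the 20-base tag averaged 33.2% ± 57.6 over the 3 LPS+AS-IV libraries, 98.6% in the 1 LPS library with reads and 0% in the 2 Control libraries with reads. With 1 LPS library no test against LPS could pass a threshold, and none is given. The exact permutation p was 1 for LPS+AS-IV against Control.

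The Control forms of miR-877 were longer. Control 1 had the 24-base tag with 73 reads (69.5%) and the 23-base tag ending in AAA with 29 (27.6%). In Control 2 all 41 core reads were the 23-base tag ending in AAT. The 24-base tag follows the hairpin to its end, whereas both 23-base tags depart from the hairpin after base 20. LPS 1 had 1 read of 22 bases in the hairpin class, and LPS 2 and Control 3 had none. Main tags were therefore 19 to 21 bases long in the 3 LPS+AS-IV libraries and LPS 3, and 23 or 24 bases long in Control 1 and Control 2. This was seen after the values were known, rests on 1 or 2 tags per library and is given with no test.

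**Figure D4:**
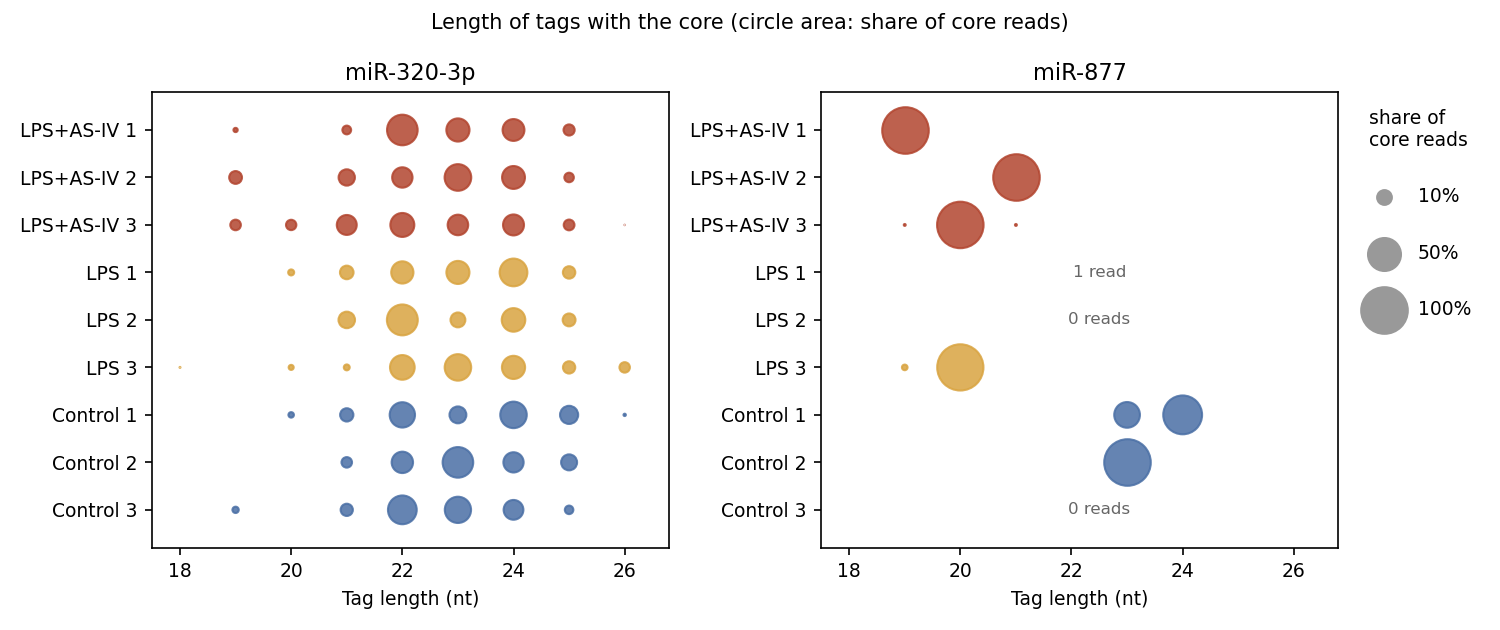
Length (nt) of the tags that hold the core of miR-320-3p (left) and miR-877 (right) in each library, with circle area as the share of core reads; libraries with under 10 reads are given as their number of reads. miR-320-3p is spread over many lengths in every library, and miR-877 has 1 main length per library, 19 to 21 nt in LPS+AS-IV and LPS 3 and 23 or 24 nt in Control 1 and Control 2.

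All reads that match part of the RefSeq hairpin with no mismatch began at its first base, which is the 5′ end of the intron. They numbered 14, 157 and 1172 in LPS+AS-IV 1, 2 and 3, 1, 0 and 69 in LPS, and 73, 0 and 0 in Control. No such read fell elsewhere in the hairpin, so its 3′ arm gave 0 exact reads in each library, which allows up to 3. Reads of that arm with a mismatch or an added base were not searched for. The table took in between 99.0% and 100% of core reads in the 6 libraries where miR-877 had at least 10. For this member the table thus held nearly the whole signal, unlike miR-320-3p.

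The members were set against the 94 tested miRNAs with the same measures, as a description. The most common tag of a library held on average 28.0% of miR-320-3p core reads and 94.6% of miR-877 core reads, against a median of 65.0% over the 94. miRNAs below miR-320-3p numbered 3, and 3 lay above miR-877. This share fell with depth (Spearman's rho -0.62 over the 94 miRNAs, which share libraries), and miR-877 has few reads. Over the 56 miRNAs with at least 10 core reads in every library, rho was weaker, at -0.27, and the median share was 57.9%. Again 3 of them were below miR-320-3p. These were miR-484, at 27.5%, and miR-27a-3p and miR-27b-3p, which share a core and so a value of 27.3%.

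**Figure D5:**
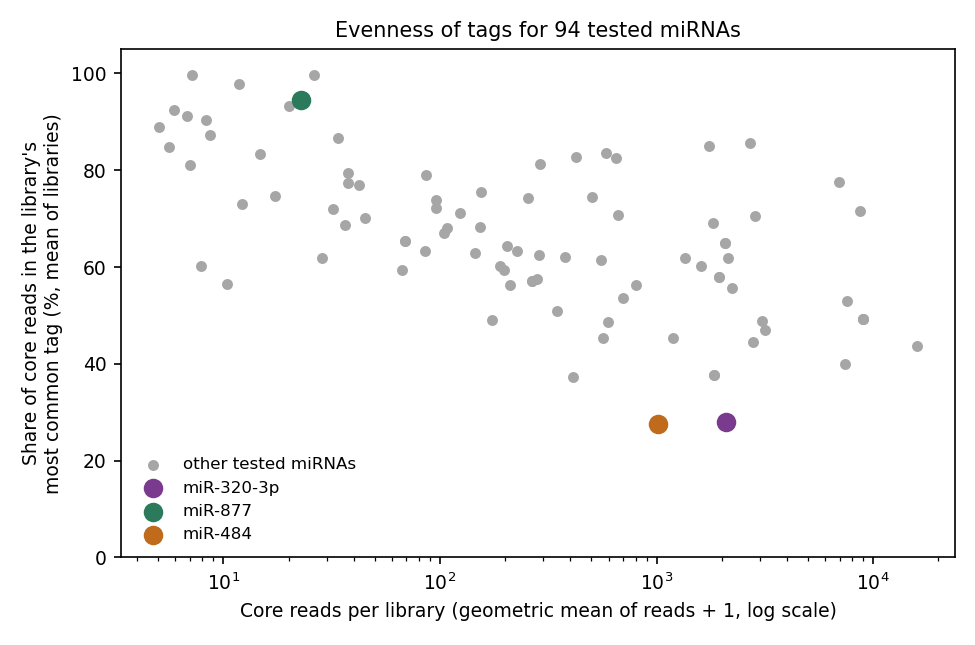
Mean share of core reads in the most common tag of a library (%) against core reads per library (geometric mean, log scale) for 94 tested miRNAs. miR-320-3p at 28.0% and miR-484 at 27.5% lie below most miRNAs, and miR-877 at 94.6% lies near the top among miRNAs with few reads.

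Assignment to Rfam was also frequent for miR-320-3p, though not for it alone. On average 31.3% of its core reads were in that class, against a median of 4.81% over the 56 miRNAs, of which 3 were higher. For miR-484 the average was 23.4%, with 5 of the 56 higher. The share that reached the table was 32.9% for miR-320-3p, and 21 of the 56 were lower, with a median of 44.6%. Its core reads began at the usual base in 94.8% on average, against a median of 98.8%, with 6 lower.

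Other miRNAs known to be made without Drosha were looked for by name. miR-484, whose hairpin is also capped, was in all 9 libraries. Its level was 13848, 3963 and 3218 CPM in LPS+AS-IV 1, 2 and 3, 6477, 3766 and 5163 CPM in LPS, and 8398, 8841 and 6343 CPM in Control. LPS+AS-IV once more held the highest and the lowest library. Its log2 fold change by edgeR came to 0.45 (SE 0.69, adjusted p = 0.963) in LPS+AS-IV against LPS, -0.17 (SE 0.69, edgeR adjusted p = 0.981) in LPS+AS-IV against Control and -0.61 (SE 0.70, edgeR adjusted p = 0.964) in LPS against Control. Between 17.4% in LPS 2 and 63.4% in LPS+AS-IV 1 of its core reads were in the table.

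The mirtron miR-1224 gave 1 read, in Control 2. The other-arm products miR-320-5p and miR-877-3p and the names miR-344, miR-702 and miR-1981 had no entry in the files used here. Of the 9 names of the list other than miR-344, 3 were in the table and tested, the members and miR-484. Their adjusted edgeR p-values, given above, passed in no comparison, where 0%, 2.13% and 1.06% of all tested miRNAs did, so a count of 0 among 3 is near the background. Their summed level ranged from 11890 to 40389 CPM in LPS+AS-IV, 15184 to 23351 CPM in LPS and 18089 to 23101 CPM in Control.

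The miRNAs whose log2 CPM followed miR-320-3p most closely over the 9 libraries were miR-423-3p (Pearson's r = 0.73), let-7d-3p (0.73), miR-92a-3p (0.71) and miR-24-3p (0.70). For miR-877 they were miR-204-5p (Pearson's r = 0.76), miR-21-5p (0.66), miR-342-3p (0.65) and miR-92b-3p (0.55). miR-320-3p and miR-877 did not follow each other (r = -0.14). These values are descriptions over libraries that share their scaling, and are the highest among all tested miRNAs. miR-204-5p, which the series title names, had 1803, 2424 and 1360 CPM in LPS+AS-IV 1, 2 and 3, 108, 17.1 and 321 CPM in LPS, and 1619, 1613 and 847 CPM in Control. Its lowest 2 libraries, LPS 1 and LPS 2, were among the 3 where miR-877 had 0 reads in the table, and Control 3 was the other.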

How the data were processed

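The authors deposited a table of whole-number read counts per mature miRNA and, for each library, counts of distinct tags with 1 assignment and a score, which per the file headers is the number of mismatches for miRNA tags. Bowtie2 and build Rnor_6.0 are named in the submitters' processing notes without role or version. Their trimming was not given in the sources used here. A second deposited count column, headed exp, never exceeded the reads and entered only an alternative.

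The table equalled the sum of mature tags for both members in all 9 libraries. Counts were tested by edgeR's quasi-likelihood method (version 4.0.16 in R 4.3.3, TMM, filterByExpr, 1 fit over 9 libraries, Benjamini-Hochberg adjusted p under 0.05), with DESeq2 1.42.0 as an alternative. The code was run on simulated data with a spread far below that of these data (square root of the common dispersion 1.42). That run therefore does not show how the test performs here. Each SE is the absolute log2 fold change divided by the square root of the F statistic. Single values were compared with exact permutation tests (scipy 1.17.1). Core tags hold bases 3 to 18 of the most common mature tag of a miRNA, and miRNAs that share a core share its reads. RefSeq sequences are of build GRCr8, and no coordinates were moved between builds. Named miRNAs were the members, their other arms, a list of miRNAs made without Drosha and the 4 closest in pattern to each member. The members and lists were chosen with earlier results of these data known. Same-numbered libraries did not deviate together (r from -0.12 to 0.15).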

Additional observations from a re-analysis of the deposited data

How the results depend on the processing

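Neither member was called under any alternative (lowest adjusted p 0.554), and 122 of 130 alternative fold changes kept their direction. For LPS against Control, miR-320-3p turned to -0.0032 with library totals and to -0.037 with all core tags per table read, an alternative added after seeing the data. With tags scored as 0 or 1 mismatch, its commonest tag's share turned to -0.27 (LPS+AS-IV against LPS) and -4.54 points (LPS+AS-IV against Control). miRNAs called in LPS against Control (1) numbered 2 with library totals, no filter, the exp column or the replicate block, 3 with DESeq2 or only the groups compared, and 0 with each tag given to 1 name. Those in LPS+AS-IV against LPS (0) numbered 1 with DESeq2, no filter or the replicate block, and those in LPS+AS-IV against Control (2) numbered 0 with each tag given to 1 name. With the replicate number as a block, miR-877 was 4.31, 0.10 and -4.21, and miR-320-3p 0.17, 0.32 and 0.16, for LPS+AS-IV against LPS, LPS+AS-IV against Control and LPS against Control. No call of a member changed with the block. Leaving out 1 library gave ranges of -0.13 to 0.38 (LPS against Control), -0.39 to 0.67 (LPS+AS-IV against LPS) and -0.072 to 0.81 (LPS+AS-IV against Control) for miR-320-3p, and of -9.87 to -0.48, 1.62 to 10.57 and 0.016 to 1.75 for miR-877 in the same order. The share of the commonest miR-320-3p tag ranged from -11.8 to 2.08 points in LPS against Control, the log2 ratio of the members from -3.62 to 0.034 in LPS+AS-IV against Control, and the mean length from -0.14 to 0.15 nt in LPS against Control. The share of miR-320-3p core reads in the table ranged from -6.88 to 6.53 points in LPS against Control and from -12.3 to 1.13 points in LPS+AS-IV against LPS. All core tags of miR-320-3p per assigned reads, also added later, gave 2.13 in LPS+AS-IV against LPS and 2.59 in LPS+AS-IV against Control, but -1.28 and -0.82 without LPS+AS-IV 3. For miR-877 the same measure gave 4.63 and 3.14, and 1.84 and 0.35 without LPS+AS-IV 3; with assigned reads as library size the fit also gave 4.63 and 3.14, against 2.37 and 0.73 with TMM. The cause was not tested. Against TMM, assigned reads as library size moved the median of all tested miRNAs by 1.31, 1.44 and 0.13, in the order of comparisons used for the block. The same median shifted by -0.19 with library totals (LPS+AS-IV against Control) and by -0.10 with size factors of DESeq2 (LPS+AS-IV against LPS). With no read seen, up to 3 remain possible, from 5.99 CPM (LPS+AS-IV 3) to 216 CPM (LPS+AS-IV 1).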
